A study of Mus musculus with 36 samples.

Results

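The genes described here are the 4 invariant chains of the CD3 complex (Cd3g, Cd3d, Cd3e and Cd247, the last coding for the zeta chain), Ptcra, which codes for pre-T alpha, and Trbv1, a variable segment of the T cell receptor beta locus. They were chosen by name, and every probe set annotated to exactly 1 of them was used. They are 6 of the 18193 genes measured, through 10 of 45037 probe sets: 1 each for Cd3g, Cd3d, Cd3e and Ptcra, 4 for Cd247 and 2 for Trbv1. One-colour arrays measured mRNA in 8 populations of stem cells, progenitors and thymocytes, sorted by surface markers, on 36 arrays.

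The populations with 6 arrays each were haematopoietic stem cells sorted as LSKFlt3-CD48-CD150+ (HSC), marrow progenitors sorted as LSKFlt3hi IL7R+ and labelled as cells that seed the thymus (LSK), early thymic progenitors sorted as ETPFlt3hi (ETP), and thymocytes at the DN3 stage. DN2Kit+ thymocytes (here DN2) had 3 arrays. Common lymphoid progenitors (CLP) had 4, adult early thymic progenitors (adult ETP) 2 and B cell progenitors (pro-B) 3. All mice were C57BL6 with no transgene or treatment named, every array is labelled 1 week of age, those titled adult too, and the sex label covers both sexes. The arrays came in sets that were normalized apart. Set 1 holds 3 arrays each of HSC, LSK, ETP, DN2 and DN3, each from RNA of several pooled mice, and set 2 holds the other 21 arrays, for which no pooling is stated. Levels are log2 values and are compared only within a set. A probe set's level depends on its probes, so levels of different genes are not set against each other.

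During T cell development a thymocyte rearranges its beta chain first. At the DN3 stage the new beta chain pairs with pre-T alpha, an invariant stand-in for the alpha chain, and the pair reaches the membrane with CD3 gamma, delta, epsilon and zeta as the pre-T cell receptor. The CD3 chains carry the ITAM motifs (tyrosine signalling motifs of their cytoplasmic tails) through which this receptor signals and allows the cell to go on to the next stage, while cells without a working beta chain stop there.

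The sequences below show the promoters of the 5 genes with an entry in RefSeq's table for GRCm38.p6, because 4 of them rose together between ETP and DN3. Each runs 5′ to 3′ on the gene's strand, from 250 bases before the start to 50 bases into the transcript, with E-boxes (letters CANNTG, either strand) in capitals. E-boxes are the binding motif of the E proteins, which include E2A and HEB and are regulators of early T cell genes. The windows are chr9:44980382-44980681 (minus strand) for Cd3g, chr9:44981536-44981835 (plus strand) for Cd3d, chr9:45009562-45009861 (minus strand) for Cd3e, chr1:165788431-165788730 (plus strand) for Cd247 and chr17:46763663-46763962 (minus strand) for Ptcra.
Cd3g: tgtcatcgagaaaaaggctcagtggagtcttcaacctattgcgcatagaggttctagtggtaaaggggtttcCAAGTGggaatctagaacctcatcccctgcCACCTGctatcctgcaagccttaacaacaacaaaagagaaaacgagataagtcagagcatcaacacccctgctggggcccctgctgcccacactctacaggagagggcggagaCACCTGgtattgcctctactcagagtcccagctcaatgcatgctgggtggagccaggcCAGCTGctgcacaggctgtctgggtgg
Cd3d: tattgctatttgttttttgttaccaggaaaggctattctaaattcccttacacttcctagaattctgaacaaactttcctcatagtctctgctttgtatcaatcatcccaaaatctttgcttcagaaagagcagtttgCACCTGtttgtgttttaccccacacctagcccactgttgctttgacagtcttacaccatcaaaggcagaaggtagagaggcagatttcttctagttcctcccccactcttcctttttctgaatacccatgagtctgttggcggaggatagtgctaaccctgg
Cd3e: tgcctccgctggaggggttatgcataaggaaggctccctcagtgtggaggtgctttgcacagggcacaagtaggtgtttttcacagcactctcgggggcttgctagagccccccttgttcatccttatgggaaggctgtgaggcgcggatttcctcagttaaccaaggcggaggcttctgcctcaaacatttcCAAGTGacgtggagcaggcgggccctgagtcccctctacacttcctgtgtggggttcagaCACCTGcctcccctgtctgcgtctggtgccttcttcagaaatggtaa
Cd247: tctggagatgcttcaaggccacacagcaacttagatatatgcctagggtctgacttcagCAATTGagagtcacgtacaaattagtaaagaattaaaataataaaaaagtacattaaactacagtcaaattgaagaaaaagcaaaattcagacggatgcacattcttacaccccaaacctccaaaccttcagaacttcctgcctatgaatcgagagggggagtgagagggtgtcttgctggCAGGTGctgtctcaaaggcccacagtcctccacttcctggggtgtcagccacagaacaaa
Ptcra: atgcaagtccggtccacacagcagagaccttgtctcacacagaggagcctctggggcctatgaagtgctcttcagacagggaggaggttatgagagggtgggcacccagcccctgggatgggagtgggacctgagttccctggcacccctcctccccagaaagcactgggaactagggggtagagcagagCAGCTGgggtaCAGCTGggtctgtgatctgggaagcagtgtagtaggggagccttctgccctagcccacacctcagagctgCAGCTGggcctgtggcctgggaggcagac

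Cd3g, Cd3d and Cd3e are neighbours, and Cd3g and Cd3d are read away from each other from adjacent starts. The Cd3g window held 4 E-boxes, that of Ptcra 3, those of Cd3e and Cd247 2 each and that of Cd3d 1. An E-box occurred in 72.3% of the 32544 promoters of this length, so its presence says little. All 3 copies in Ptcra had the letters CAGCTG. One or more CAGCTG occurred in 16.4% of promoters and at least 3 in 0.209%. The motif AGGAAG, read by ETS factors, occurred 2 times each in Cd3d, Cd3e and Cd247 and in 35.1% of all promoters, CTTTGA (TCF factors) 2 times in Cd3d and 1 time in Cd247 (16.0% of promoters), and AGATAA (the family of Gata3) 1 time in Cd3g (11.2%). TGTGGT (RUNX factors, 16.7% of promoters) and TATAAA (13.6%) were in none of the 5 windows. Both strands were searched, the motifs were chosen after the sequences were seen, and matches are descriptions of letters, not sites.

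Within a set, arrays of a population correlated at 0.974 to 0.990 (set 1) and 0.969 to 0.989 (set 2) over all genes, and each array's nearest neighbour was of its own population in 15 of 15 and 17 of 21 cases; the exceptions were all 4 CLP arrays, each nearest to an LSK array. The mean log2 level of 5 T lineage commitment markers was 9.62 to 9.69 in DN2 and 9.56 to 9.83 in DN3 against 5.76 to 6.20 in ETP, that of 4 stem cell markers 9.34 to 9.65 in HSC against at most 6.21 elsewhere, and that of 4 B lineage markers 11.64 to 11.84 in pro-B. The stem cell markers include Slamf1, the gene of CD150, by which HSC were sorted, so that part of their level follows from the sort. The B lineage markers were also raised in LSK (7.17 to 7.67 in set 1 against 4.96 to 5.52 in HSC). Late granulocyte markers varied between arrays of HSC, LSK, CLP and pro-B, up to 9.50 in 1 CLP array. Genes were tested with limma over all 36 arrays with the set as a term, and called at a Benjamini-Hochberg adjusted p under 0.05 and a log2 difference of 1 or more, a 2-fold change. A fitted difference between a population present in both sets and one present in 1 uses the arrays of both sets. It can therefore differ from the difference within the 1 set that holds both populations. Of the 5 T lineage markers 4 were called higher in DN2 than in ETP and 1, Cd7, lower, by -1.71 (limma adjusted p = 4.6e-07). Over all genes 1.44% were called higher and 1.65% lower.

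From ETP to DN2 the receptor's signalling chains and pre-T alpha rose together. Of the 6 genes, 4 were called higher (Cd3g, Cd3e, Ptcra and Cd3d) and none lower, against 1.44% of all genes called higher. From DN2 to DN3 Ptcra, Cd3d and Cd3e were called higher, 3 of 6 against 0.77% of all genes. Trbv1 followed another course: it rose from HSC to LSK and again from LSK to ETP, and its differences after ETP were not called. Cd247 depended on the probe set that was read. In bulk samples like these, fewer cells of a kind and less RNA per cell cannot be told apart.

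**Figure D1:**
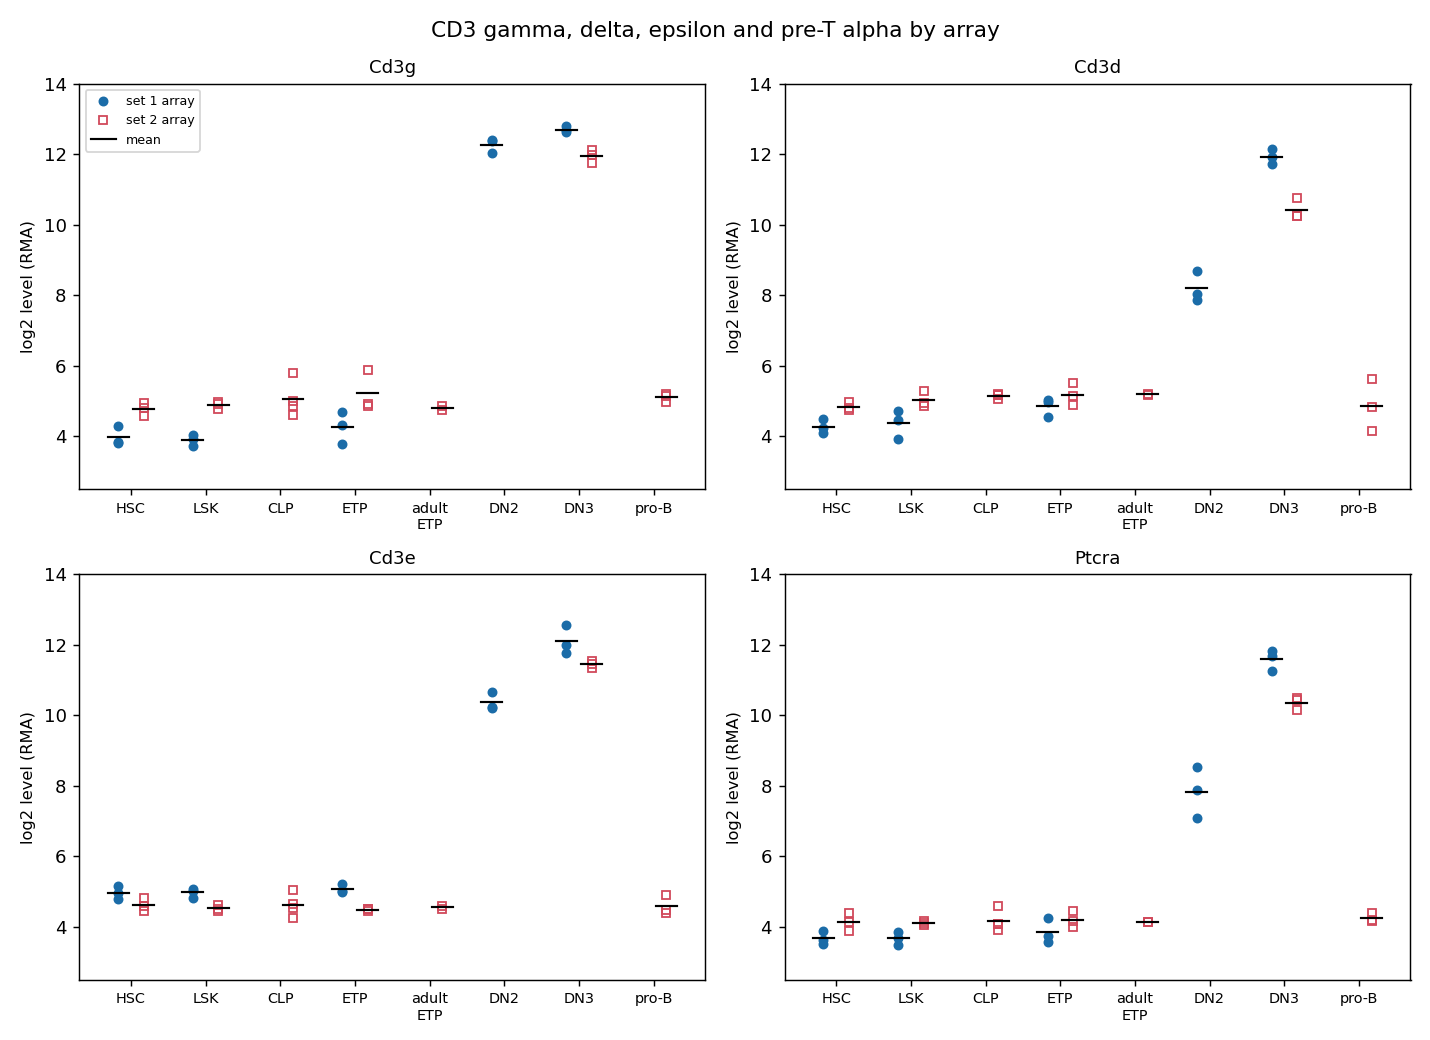
Log2 level (RMA) of Cd3g, Cd3d, Cd3e and Ptcra on every array, by population; filled circles are set 1 arrays, open squares set 2 arrays, and bars the mean of a population within a set. Only DN2 and DN3 stand above the band of the other populations. For Cd3g DN2 lies at 12.02 to 12.41 against 12.62 to 12.80 in DN3, and for Cd3d and Ptcra DN2 lies below DN3 too. How near DN2 sits to DN3 is not ranked between genes.

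Cd3g codes for CD3 gamma, which pairs with CD3 epsilon. In set 1 its log2 level was 3.85, 4.28 and 3.79 in HSC, 4.04, 3.73 and 3.93 in LSK and 4.31, 4.70 and 3.78 in ETP, then 12.02, 12.37 and 12.41 in DN2 and 12.62, 12.80 and 12.67 in DN3. HSC, LSK and ETP overlapped, every DN2 array lay above all of them, and every DN3 array lay above every DN2 array. Such separation was common with 3 arrays against 3. In set 1, 10% of all probe sets lay higher without overlap in DN2 than in ETP, and 11.1% in DN3 than in DN2. The rise of Cd3g from ETP to DN2 was 7.78 on the log2 scale (SE 0.31, limma adjusted p = 1.25e-18), a 220-fold difference. The further step from DN2 to DN3 was not called: the fitted difference was -0.19 (adjusted p = 0.768), while set 1 alone, the only set with DN2, gave 0.43 (adjusted p = 0.302). In set 2 DN3 had 12.13, 11.98 and 11.74, and the other 18 arrays lay between 4.57 and 5.87. Pro-B (5.15, 4.97 and 5.20), adult ETP (4.86 and 4.73) and CLP (4.61 to 5.79) were all in that lower band, and no neighbours in the order below DN3 separated.

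Cd3e codes for CD3 epsilon, the chain shared by the gamma-epsilon and delta-epsilon pairs. Its set 1 levels were 4.96, 4.78 and 5.15 in HSC, 4.83, 5.08 and 5.03 in LSK, 4.98, 5.02 and 5.21 in ETP, 10.22, 10.67 and 10.25 in DN2 and 12.56, 11.76 and 11.99 in DN3. The first 3 populations overlapped, and DN2 and DN3 each separated from the population before (10% and 11.1% of all probe sets did so upward). The rise from ETP to DN2 was 5.35 (SE 0.16, limma adjusted p = 1.74e-21; 40.7-fold) and that from DN2 to DN3 1.65 (SE 0.16, adjusted p = 8.37e-09; 3.15-fold). In set 2 DN3 had 11.47, 11.55 and 11.36. The other 18 arrays of set 2 lay between 4.25 and 5.06 with their populations overlapping.

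Cd3d codes for CD3 delta, the partner of epsilon in the second pair. Its set 1 levels were 4.09, 4.48 and 4.23 in HSC, 4.45, 3.93 and 4.70 in LSK, 4.96, 5.03 and 4.56 in ETP, 7.87, 8.67 and 8.04 in DN2 and 12.16, 11.91 and 11.73 in DN3. The DN2 levels lay about midway between ETP and DN3. The rise from ETP to DN2 was 3.19 (SE 0.36, limma adjusted p = 1.04e-07; 9.13-fold) and that from DN2 to DN3 2.97 (SE 0.36, adjusted p = 7.35e-07; 7.83-fold). Within set 1, the only set with DN2, the second step was 3.73 (limma adjusted p = 7.93e-07; 13.3-fold). In set 2 DN3 had 10.74, 10.24 and 10.25, above every other array of the set (4.14 to 5.61). Within that lower band pro-B spread most, at 4.81, 4.14 and 5.61.

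Ptcra, the pre-T alpha chain itself, was also called higher at both steps. It had 3.88, 3.52 and 3.63 in HSC, 3.49, 3.67 and 3.87 in LSK, 4.25, 3.58 and 3.74 in ETP, 7.09, 7.89 and 8.53 in DN2 and 11.84, 11.25 and 11.68 in DN3 of set 1. The DN2 arrays were the most spread of these groups, and none overlapped ETP or DN3. The rise from ETP to DN2 was 3.81 (SE 0.31, limma adjusted p = 7.71e-11; 14-fold) and that from DN2 to DN3 3.14 (SE 0.31, adjusted p = 9.1e-09; 8.79-fold). Within set 1 the second step was 3.75 (limma adjusted p = 5.81e-06; 13.5-fold). In set 2 the DN3 arrays had 10.43, 10.48 and 10.16, and all others lay between 3.89 and 4.59. Both adult ETP arrays (4.15 and 4.15) and all 3 pro-B arrays (4.40, 4.21 and 4.17) lay in that range.

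The place of DN2 between ETP and DN3 can be given for each gene as a share. Of the distance from the ETP mean to the DN3 mean in set 1, on the log2 scale, DN2 had covered 94.9% for Cd3g (92.0% to 96.7% over its 3 arrays), 75.5% for Cd3e (73.2% to 79.6%), 51.5% for Ptcra (41.8% to 60.4%) and 47.3% for Cd3d (42.7% to 54.0%). Such a share depends on each probe set's own floor and top, and whether the ETP levels lie above background or the DN3 levels near the top of the scale is not known, so the shares are not ranked between genes. The difference between the steps was tested for each gene as the DN2 minus ETP step less the DN3 minus DN2 step, a contrast chosen after the values were seen. Of the 6 genes 2 were called, both for a larger first step, against 1.52% of all genes: Cd3g at 7.97 (SE 0.58, limma adjusted p = 1.85e-11) and Cd3e at 3.69 (SE 0.30, adjusted p = 2.07e-10). For Cd3d the difference was 0.22 (SE 0.67, adjusted p = 0.924) and for Ptcra 0.67 (SE 0.57, adjusted p = 0.64), which does not show that their steps were equal. The fit uses the DN3 arrays of set 2 as well; within set 1 the first and second steps were 3.35 and 3.73 for Cd3d, the second being the larger, and 3.98 and 3.75 for Ptcra. DN2 arrays exist only in set 1, so neither share nor contrast has a second set to be compared with.

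**Figure D2:**
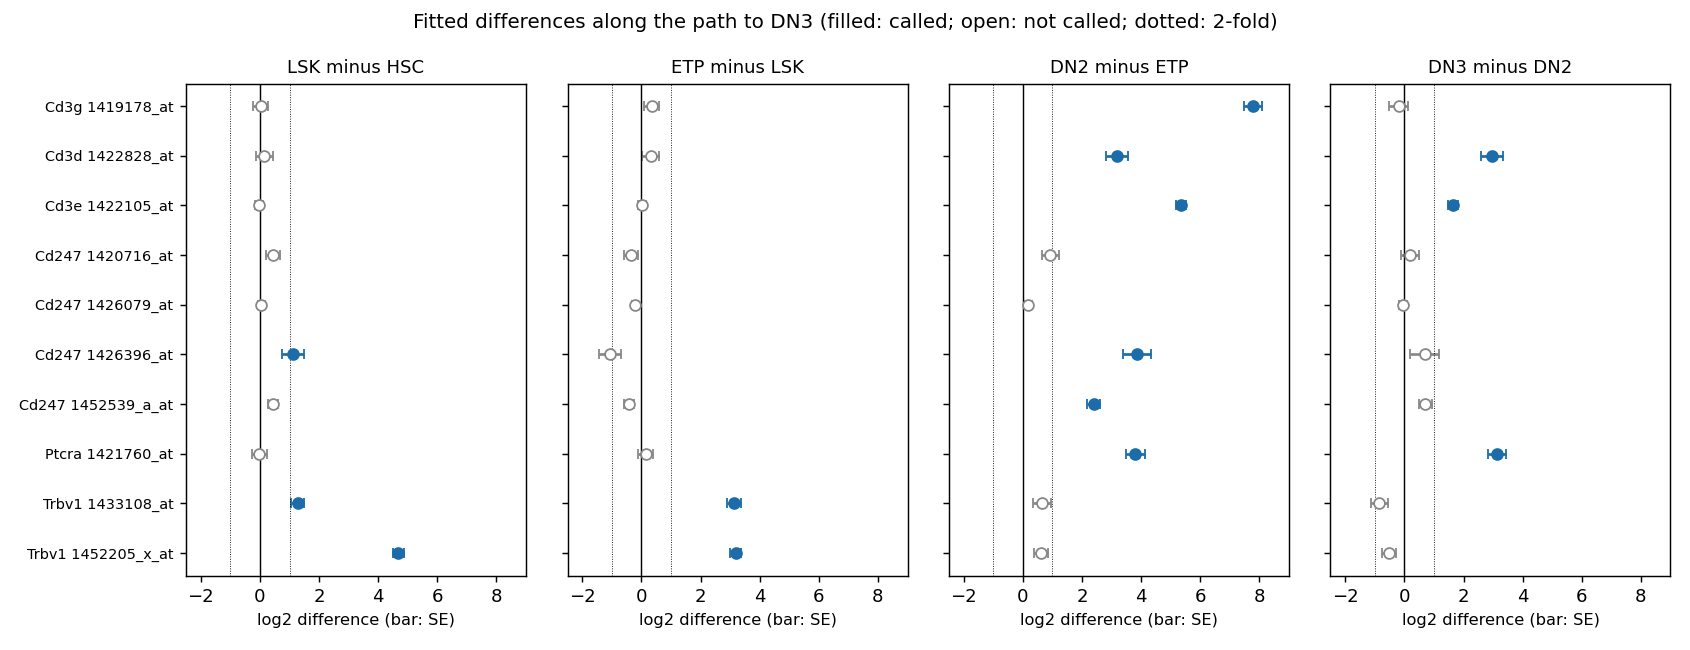
Fitted log2 differences of the 10 probe sets in 4 successive comparisons, from HSC to LSK, ETP, DN2 and DN3; points are the limma estimates, bars 1 SE, filled points called, and dotted lines mark 2-fold. Both Trbv1 probe sets are called in the first and second panels, with Cd247 1426396_at in the first; Cd3g, Cd3d, Cd3e, Ptcra and Cd247 1426396_at and 1452539_a_at are called in the third, and Cd3d, Cd3e and Ptcra in the fourth.

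Cd247 codes for the zeta chain, which joins the complex as a dimer and carries most of its ITAMs. Its 4 probe sets told different stories. The probe set with the highest mean, which represents the gene in the counts above, was flat: 1426079_at lay between 9.40 and 10.45 on all 36 arrays, its DN2 minus ETP difference was 0.17 (limma adjusted p = 0.708), and it was called in no comparison. Probe set 1426396_at rose at the same step as the other CD3 chains. In set 1 it had 3.16, 5.52 and 4.29 in HSC, 6.24, 6.06 and 5.95 in LSK, 5.48, 4.95 and 4.70 in ETP, 8.55, 8.80 and 8.84 in DN2 and 9.43, 9.77 and 9.56 in DN3. Its DN2 arrays lay above every ETP array by more than the spread within either, and its LSK arrays lay above those of HSC and of ETP. Over all probe sets of set 1, 13.3% lay higher in LSK than in HSC without overlap, and 7.72% lower in ETP than in LSK.

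With every probe set tested, 6 of the 10 were called from ETP to DN2, all higher, against 1.33% of all probe sets called higher. Probe set 1426396_at rose by 3.85 (SE 0.47, limma adjusted p = 6.9e-07; 14.5-fold), and 1452539_a_at by 2.40 (SE 0.22, adjusted p = 1.93e-09; 5.27-fold). The latter had 4.36, 5.13 and 4.91 in ETP, 7.52, 7.23 and 7.13 in DN2 and 8.46, 8.31 and 8.04 in DN3 of set 1, and 3.83, 3.77 and 3.82 in ETP against 6.69, 6.00 and 6.92 in DN3 of set 2. Its arrays separated at each of these steps, as 10% (ETP to DN2) and 11.1% (DN2 to DN3) of all probe sets did upward in set 1. The fourth probe set, 1420716_at, had 5.82, 6.63 and 5.89 in ETP, 8.06, 6.99 and 6.87 in DN2 and 8.06, 7.58 and 7.29 in DN3. Its 0.93 from ETP to DN2 was not called (adjusted p = 0.0852) and its 1.12 from ETP to DN3 was (adjusted p = 0.000844).

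From DN2 to DN3 no Cd247 probe set was called; 1426396_at differed by 0.68 (adjusted p = 0.484) and 1452539_a_at by 0.70 (adjusted p = 0.0669). The shares of the ETP to DN3 distance reached at DN2 were 81.2% for 1426396_at (77.2% to 83.6%) and 71.9% for 1452539_a_at (67.3% to 78.3%). The step contrast was called for 1452539_a_at at 1.70 (SE 0.41, adjusted p = 0.0179) and missed the threshold for 1426396_at at 3.17 (SE 0.87, adjusted p = 0.0517). Before the thymus, 3 of the 10 probe sets were called higher in LSK than in HSC, against 3.36% of all probe sets: those of Trbv1, and 1426396_at by 1.12 (SE 0.37, adjusted p = 0.027), a difference of 1.75 in set 1 and of 0.48 in set 2, where the arrays overlapped. Its arrays lay lower in ETP than in LSK in both sets, as did 7.72% (set 1) and 8.41% (set 2) of all probe sets. The fitted difference, -1.06, was not called (adjusted p = 0.157).

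**Figure D3:**
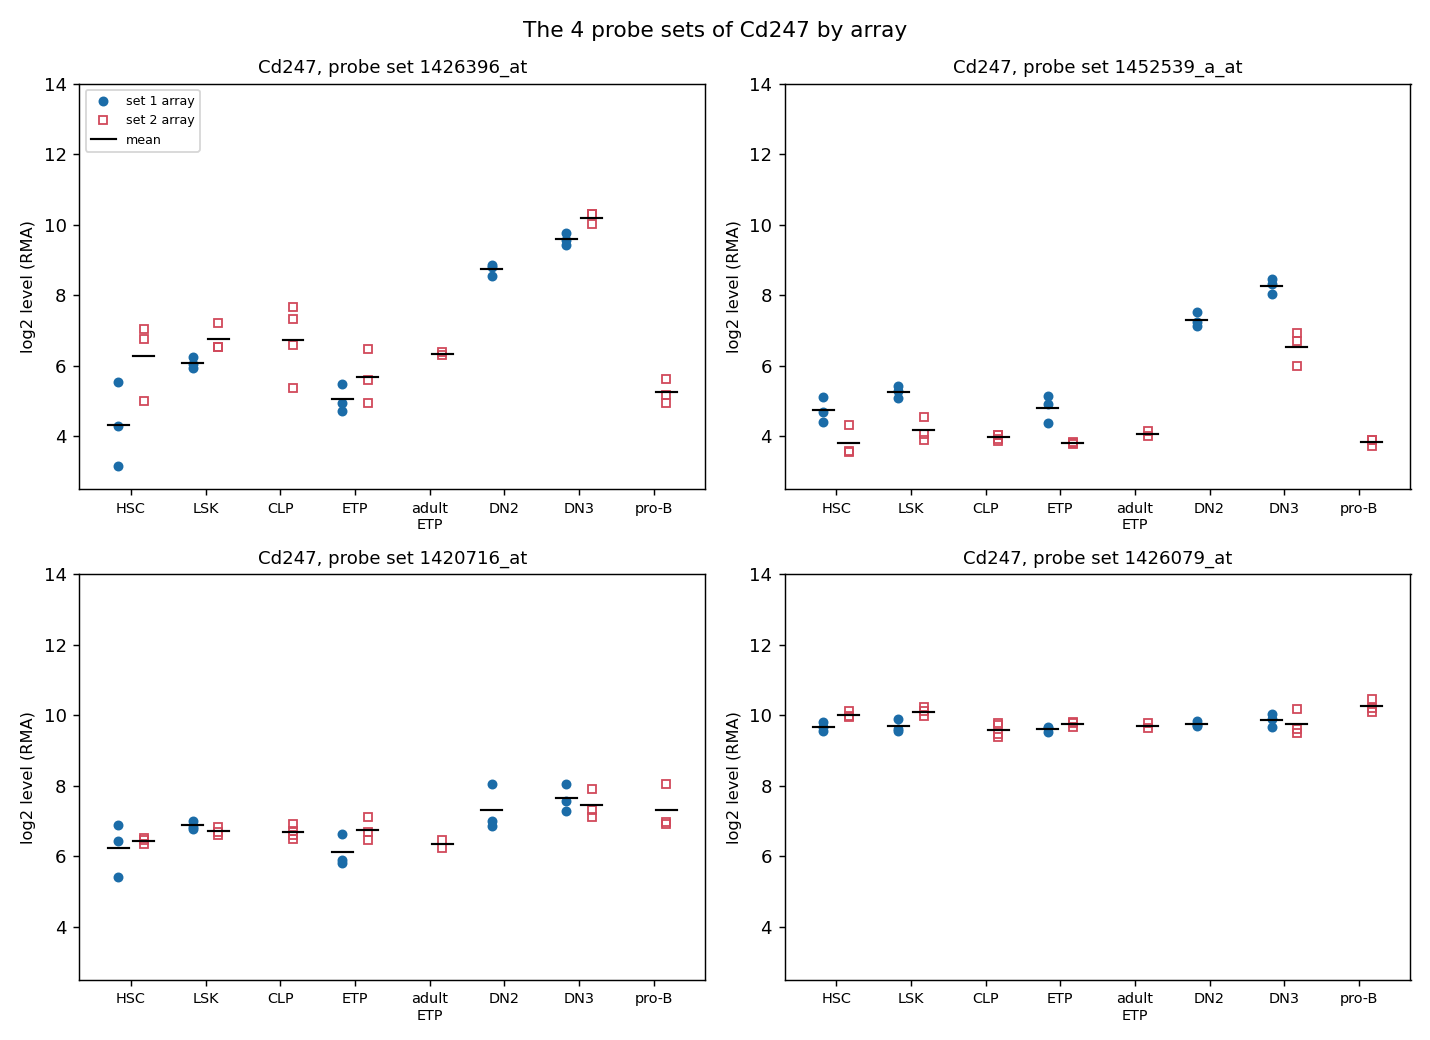
Log2 level (RMA) of the 4 Cd247 probe sets on every array, by population; filled circles are set 1 arrays, open squares set 2 arrays, and bars the mean of a population within a set. Probe sets 1426396_at and 1452539_a_at are highest in DN2 and DN3, 1420716_at moves less, and 1426079_at stays between 9.40 and 10.45 throughout.

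Trbv1 belongs to the receptor's variable part, which is made by rearrangement of the beta locus; RNA of a segment can also come from a locus that is not rearranged, and the arrays do not tell these apart. Its representative probe set 1452205_x_at carries Affymetrix's mark for probes that can cross-hybridise with other sequences, so its level may hold signal of related segments. In set 1 it had 3.42, 3.84 and 4.56 in HSC, 8.90, 8.83 and 9.56 in LSK, 12.20, 12.12 and 12.40 in ETP, 12.73, 12.78 and 12.80 in DN2 and 12.30, 12.55 and 12.37 in DN3. In set 2 it had 4.79, 4.39 and 4.69 in HSC, 8.92, 8.97 and 8.60 in LSK, 7.94 to 8.66 in CLP, 12.13, 12.04 and 12.08 in ETP, 12.18 and 12.26 in adult ETP and 12.30, 12.16 and 11.76 in DN3. HSC, the marrow lymphoid populations and the thymic populations formed 3 levels with no overlap in either set. Pro-B, at 6.62, 7.24 and 6.58, lay between HSC and CLP.

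Trbv1 was the 1 gene of 6 called from HSC to LSK, against 3.9% of all genes called higher, with a rise of 4.68 (SE 0.19, limma adjusted p = 4.42e-19; 25.7-fold). The B lineage markers rose at the same step (4 of 4 measured), as did 2 of 5 NK cell markers (Klrd1 by 1.63 and Nkg7 by 2.09). So did 2 of 4 gamma-delta T cell markers (Sox13 by 1.26, Blk by 1.24) and, of 4 double-positive and mature T cell markers, Ccr7 (by 2.35). All 4 stem cell markers and, of 5 T lineage markers, Thy1 (by -2.08) were called lower. The part of these lists in this result was not tested. Trbv1 was also the 1 gene called from LSK to ETP (0.764% of all genes were called higher), with a rise of 3.19 (SE 0.19, adjusted p = 9.4e-14; 9.16-fold). At that step all 4 B lineage markers were called lower (median -2.71; 0.901% of all genes were called lower), and of the 5 NK cell markers Nkg7 was called higher, by 1.39. The mean level of the NK cell markers was 5.13 to 5.34 in LSK and 5.39 to 5.71 in ETP of set 1. Of the 5 T lineage markers 4 were called higher and, of 4 gamma-delta T cell markers, Maf (by 1.38). Of 4 stem cell markers Mecom was called lower, by -1.28. The part of these lists in this result was not tested. From ETP to DN2 Trbv1 differed by 0.60 (adjusted p = 0.187) and from DN2 to DN3 by -0.52 (adjusted p = 0.205), neither called. Its 3 DN2 arrays lay above those of ETP and of DN3 in set 1, as did 10% and 10.1% of all probe sets. The second probe set, 1433108_at, followed the same course: in set 1 it had 3.64, 3.58 and 3.49 in HSC, 5.19, 5.32 and 4.87 in LSK and 8.38, 8.40 and 7.71 in ETP, and later populations overlapped in part (DN2 8.84, 9.05 and 8.59, DN3 7.17, 8.86 and 8.32). It was called higher in LSK than in HSC by 1.27 (SE 0.23, adjusted p = 9.1e-05) and in ETP than in LSK by 3.14 (SE 0.23, adjusted p = 3.26e-11).

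**Figure D4:**
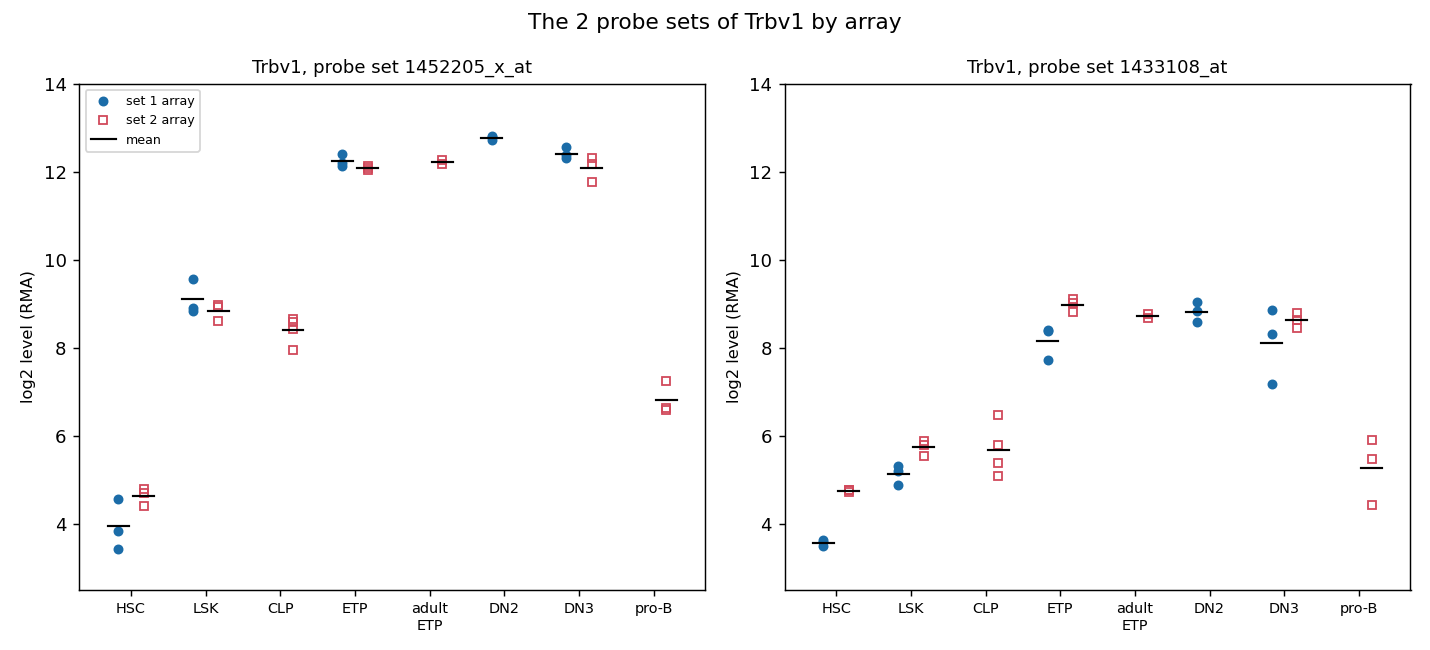
Log2 level (RMA) of the 2 Trbv1 probe sets on every array, by population; filled circles are set 1 arrays, open squares set 2 arrays, and bars the mean of a population within a set. Both rise from HSC to LSK and to ETP, and pro-B lies at 6.58 to 7.24 for 1452205_x_at.

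Common lymphoid progenitors are a second marrow population from which the thymus may be seeded, and their comparison with LSK asks whether these candidates differ. None of the 6 genes was called with limma (0.33% of all genes were), 2 had an unadjusted p under 0.05 and 0 were called with limma's treat against 1.5-fold. These were Cd247 through its representative probe set, at -0.40 (adjusted p = 0.235), and Trbv1, at -0.55 (adjusted p = 0.37). From CLP to ETP Trbv1 alone was called, 1 of 6 against 0.824% of all genes called higher, with a rise of 3.75 (adjusted p = 1.23e-13; 13.4-fold). At that step 2 of 5 late granulocyte and 2 of 4 B lineage markers were called lower (0.566% of all genes). Of the NK cell, gamma-delta T cell and T lineage markers, 1 of 5, 1 of 4 and 2 of 5 were called higher. The part of these lists in the rise was not tested. Between adult ETP and ETP none of the 6 was called with limma or treat and none had an unadjusted p under 0.05, against 0.209% of all genes called. With 2 adult arrays the standard errors ran wider, and Trbv1, for one, differed by 0.07 (SE 0.27).

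In pro-B cells, the other lymphoid lineage, the levels of Cd3g, Cd3d, Cd3e and Ptcra overlapped those of CLP, while the probe sets of Cd247 differed from each other in direction. From CLP to pro-B 1 of 6 genes was called, against 2.52% of all genes called lower. This was Trbv1 through its representative probe set 1452205_x_at, which fell by 1.59 (SE 0.25, limma adjusted p = 1.8e-05, 3.01-fold). The pro-B arrays of that probe set lay below all 4 CLP arrays. The second Trbv1 probe set, 1433108_at, was not called, and its arrays overlapped (4.42 to 5.89 in pro-B, 5.09 to 6.47 in CLP). Late granulocyte markers averaged 5.91 to 9.50 in the CLP arrays and 7.36 to 8.55 in pro-B. Their part in the fall of Trbv1 was not tested. Among the probe sets of Cd247, 1426396_at also fell by 1.496 (adjusted p = 0.0398), with overlapping arrays (5.38 to 7.66 in CLP, 4.95 to 5.61 in pro-B), whereas the representative 1426079_at was higher in pro-B by 0.66 (adjusted p = 0.00167), under 2-fold. For 1420716_at the pro-B arrays had 6.92 to 8.05 and the CLP arrays 6.50 to 6.91, and the difference, 0.64, was not called (adjusted p = 0.196). In set 2 the pro-B arrays of this probe set overlapped those of ETP (6.45 to 7.11) and DN3 (7.12 to 7.91). DN3 exceeded pro-B in 5 of the 6 genes, against 3.23% of all genes called higher: Cd3g by 7.46, Cd3e by 6.93, Ptcra by 6.72, Cd3d by 6.32 and Trbv1 by 5.42. Within set 2, the only set with pro-B, the same differences were 6.84, 6.86, 6.10, 5.56 and 5.26. Of the 10 probe sets 8 were called there higher (3.25% of all probe sets), including 1426396_at at 5.14 and 1452539_a_at at 2.97 (4.96 and 2.69 within set 2). All 5 late granulocyte markers were called lower in DN3 than in pro-B (5.05% of all genes). Of 3 macrophage markers 1, C1qb, was called lower too, by -2.86. The part of these markers in the differences between DN3 and pro-B was not tested.

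The whole distance from ETP to DN3 could be read in both sets. Of the 6 genes 4 were called higher, against 2.18% of all genes, at 7.59 for Cd3g (192-fold), 7.002 for Cd3e (128-fold), 6.94 for Ptcra (123-fold) and 6.16 for Cd3d (71.5-fold). For Cd3e the sets gave 7.03 and 6.97. For the others set 2 gave less: 6.74 against 8.43 for Cd3g, 6.16 against 7.73 for Ptcra and 5.24 against 7.08 for Cd3d. The difference between sets was -1.84 for Cd3d (limma interaction, adjusted p = 0.0738), -1.70 for Cd3g (adjusted p = 0.0781) and -1.58 for Ptcra (adjusted p = 0.0981). None of the 6 genes was called, nor was any of the 18193 (0%), while 3 of the 6 had an unadjusted p under 0.05. The sets differ in normalization, in pooling of mice and possibly in more, and these cannot be told apart.

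Downstream, the receptor signals through adaptors and kinases. Of 22 measured signalling genes 5 were called higher and 0 lower from ETP to DN2, against 1.44% and 1.65% of all genes, with a median difference of 0.47 against -0.02 over all genes. Themis, which tunes receptor signalling in thymocytes, rose by 6.06 (SE 0.20, limma adjusted p = 8.74e-21), and its set 1 levels ran from 2.87 to 3.28 in ETP and from 9.33 to 9.39 in DN2. Trat1, which binds the zeta chain, rose by 4.31 (adjusted p = 1.17e-13), and Lat, the membrane scaffold that the receptor's kinase phosphorylates, by 2.12 (adjusted p = 2.22e-11). Prkcq (1.34) and Ptpn22 (1.39) completed the 5. From DN2 to DN3 (0.77% of all genes called higher, 1.57% lower) 1 rose, the costimulatory receptor Cd28 (2.68, adjusted p = 0.0137), and 2 fell, the kinase Syk by 1.07 (adjusted p = 0.041) and Tespa1 by 1.00 (adjusted p = 0.0173). Fitted on set 1 alone, Ptpn22 (limma adjusted p = 0.0544), Cd28 (0.157), Syk (0.0724) and Tespa1 (0.178) were not called. Against pro-B, DN3 was higher in 12 and lower in 1 of the 22, against 3.23% and 5.05% of all genes, with Themis (5.78) and Lat (4.12) the furthest up and Syk, the kinase that serves the B cell receptor, down (-2.49). The kinase Zap70, which binds phosphorylated ITAMs, was not among the called genes at the DN2 or DN3 step; its set 1 levels were 5.83 to 6.39 in ETP, 6.18 to 6.65 in DN2 and 6.62 to 7.36 in DN3.

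Some other receptor segments shared a step with Trbv1. Of 8 measured segments of the receptor loci besides Trbv1, 0 were called higher from HSC to LSK, against 3.9% of all genes. From LSK to ETP 2 were called higher, against 0.764% of all genes. These were Trbv13-2 (1.40, limma adjusted p = 2.34e-05) and Trgv4 (1.21, limma adjusted p = 5.71e-06). Both were also called higher in ETP than in CLP (0.824% of all genes). Trbv13-2 was called lower in pro-B than in CLP (2.52% of all genes), by -1.28 (limma adjusted p = 0.00117). From ETP to DN2 3 rose, against 1.44% of all genes called higher. They were Trgv4, by 5.98 (limma adjusted p = 3.74e-20), Trgv1, by 5.78 (limma adjusted p = 5.11e-20), and Trbv13-2, by 2.75 (limma adjusted p = 4.2e-09). None of the 8, which do not include Tcra, was called from DN2 to DN3 (limma). Over all genes 0.77% were called higher there and 1.57% lower. Near-identical segments can share probes, so these values are uncertain at the level of a single segment. The genes of the rearrangement machinery (Rag1, Rag2 and Dntt) moved otherwise. All 3 were called higher in LSK than in HSC (3.9% of all genes) and lower in ETP than in LSK (0.901%). Rag1 differed by 6.74 and -4.08 at these steps. Rag1 then rose by 3.78 (limma adjusted p = 1.1e-10) from ETP to DN2 and by 2.09 (limma adjusted p = 2.17e-05) to DN3. Rag2 was called at neither step (1.05, limma adjusted p = 0.312, and 0.58, limma adjusted p = 0.52). Dntt was not called from ETP to DN2 (0.51, limma adjusted p = 0.496) but was from DN2 to DN3 (1.32, limma adjusted p = 0.00446).

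Of 15 measured regulators of early T cells, 4 were called higher and 1 lower from ETP to DN2, against 1.44% and 1.65% of all genes. Bcl11b, which fixes the T lineage choice, rose by 7.22 (SE 0.25, limma adjusted p = 1.89e-20), Gata3 by 2.18 (adjusted p = 4.74e-06), Ets1 by 2.14 (adjusted p = 5.85e-07) and Tcf12, the gene of the E protein HEB, by 1.21 (adjusted p = 1.26e-07), while the myeloid and progenitor factor Spi1 fell by 1.02 (adjusted p = 0.0252; 0.187 on set 1 alone, limma). From DN2 to DN3 Lef1 rose by 4.05 (adjusted p = 6.78e-14) and Id3 by 1.24 (adjusted p = 0.000409), and Runx3 fell by 1.53 (adjusted p = 0.000416). Notch1, whose signal drives the T lineage choice, was higher in LSK than in HSC by 2.22 (limma adjusted p = 1.41e-13). At that step 4 of the 15 were called higher and 0 lower, against 3.9% and 4.51% of all genes.

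The B lineage counterpart of this receptor, with surrogate light chains in place of pre-T alpha, went the other way between DN3 and pro-B. Of 5 measured pre-B receptor genes, all 5 were called higher in pro-B than in CLP (3.33% of all genes) and all 5 lower in DN3 than in pro-B (5.05%), Cd79a, a B cell ITAM chain, by -5.73 and the surrogate light chain gene Igll1 by -5.68 (limma adjusted p = 1.21e-12 and 1.07e-15). None was called from ETP to DN2 or from DN2 to DN3 with limma. At earlier steps their course was not a mirror of that of Cd3g, Cd3d, Cd3e and Ptcra, which were not called there. From HSC to LSK 4 of the 5 were called higher (3.9% of all genes), and from LSK to ETP 4 were called lower (0.901%). Among the other ITAM adaptors, Fcer1g rose by 1.24 from ETP to DN2 (adjusted p = 0.00155) and fell by 1.67 to DN3 (adjusted p = 3.72e-05), and Tyrobp fell at both steps, by 1.47 and 3.51. Over all genes 1.44% were called higher and 1.65% lower at the DN2 step, and 1.57% lower at the DN3 step. Hcst, listed with them though its protein carries no ITAM, was called at neither step.

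The mean log2 level of 4 measured markers of double-positive and mature T cells was 4.82 to 5.09 in ETP, 4.48 to 4.63 in DN2 and 4.86 to 5.01 in DN3 of set 1. Of these 0 were called higher and 1 lower at the DN2 step, against 1.44% and 1.65% of all genes. The 1 was Ccr7, by -1.29 (limma adjusted p = 0.0157, and 0.162 on set 1 alone). Of 5 NK cell markers 1, Klrd1, was called lower at that step, by -1.66. Of 4 markers of gamma-delta T cells 0 were called from ETP to DN2 (limma). Of 4 thymic epithelium markers 1, Epcam, was called. It was higher in DN2 than in ETP by 1.97 and in DN3 than in DN2 by 1.34 (0.77% of all genes called higher). Krt5, Krt8 and Psmb11 were not called. The part of Epcam in the results was not tested.

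**Figure D5:**
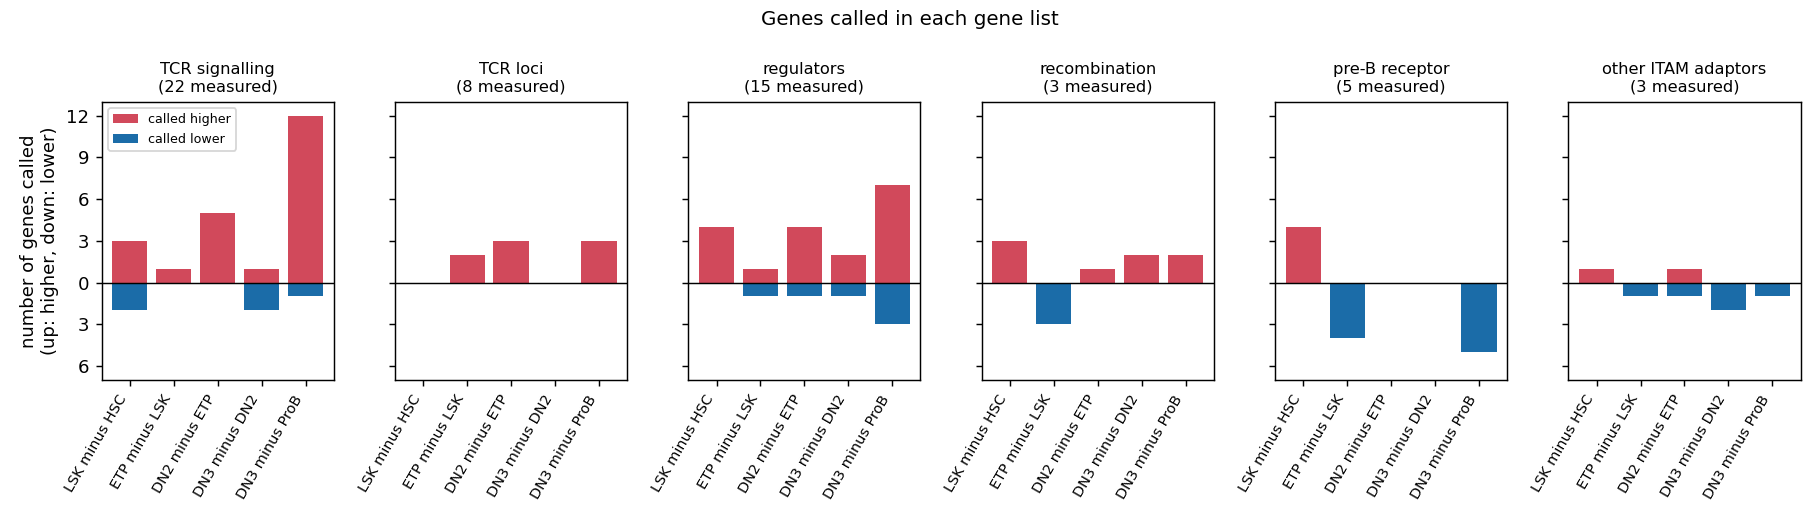
Number of genes called higher (bars up) and lower (bars down) in 6 gene lists over 5 comparisons, called at a limma adjusted p under 0.05 and at least 2-fold. Signalling genes were called most in DN3 against pro-B (12 higher, 1 lower), and the 5 measured pre-B receptor genes were all lower there. The panel of other ITAM adaptors also counts Hcst, whose protein carries no ITAM.

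The 10 probe sets fell into groups by their profile over the 36 arrays, after the set difference was taken out. Pearson's r was 0.988 between Cd3d and Ptcra, 0.980 between Cd3g and Cd3e and 0.946 between Cd3g and Cd3d, and 0.936 between the probe sets of Trbv1. Trbv1 1452205_x_at correlated with the CD3 chains and Ptcra at 0.526 to 0.567, and Cd247 1426079_at with them at 0.0603 to 0.104. Among 1389 genes whose population levels spanned at least 2 on the log2 scale, those with the most similar profile were Bcl11b (r = 0.993), Trgv1 (0.992) and Themis (0.990) for Cd3g, Mpzl2 (0.990), Themis (0.987) and Nebl (0.985) for Cd3e, Tcra (0.983), Sh2d1a (0.981) and Dgkeos (0.980) for Cd3d, and Dgkeos (0.990), Tcra (0.989) and Mpzl2 (0.980) for Ptcra. For Cd247 1452539_a_at they were Nebl (0.965), Themis (0.963) and Bcl11b (0.962), and for Trbv1 1452205_x_at Plekha7 (0.969), Atp8b4 (0.933) and Chdh (0.932), with Notch1 next but one at 0.913. These correlations rest on 8 populations and share their arrays, so they describe likeness of profile only.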

How the data were processed

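Biotin-labelled cDNA, amplified from total RNA with a Nugen WT-Ovation Pico kit per the labels' protocols, was hybridised to one-colour mouse arrays. The authors deposited expression values made with RMA (background correction, normalization between arrays, probe summary) as named in the submitters' processing notes. For RMA the sources used here give neither a log base nor a version; the deposited values behave as log2. Array medians of 5.12 to 5.22 in set 1 and 5.84 to 5.95 in set 2 show that the sets were normalized apart, so the set is a term in every fit. RMA gives no detection call, so whether a low level is above background is not known.

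Controls (64 of 45101 probe sets) were left out. The annotation names 1 gene for 34945 probe sets, several for 932 and none for 9160. A gene was represented by its probe set with the highest mean. Populations were compared with limma 3.58.1 in R 4.3.3 (lmFit, eBayes) over all 36 arrays, also probe set by probe set, with Benjamini-Hochberg adjustment over all genes or all probe sets. GEO's design text calls the samples biological replicates. No array pair was identical, and replicate numbers did not pair arrays. The steps were tested on simulated data. Python 3.11.15 with pandas 2.3.3 read the promoters and matplotlib 3.10.9 drew the plots. Arrays give no depth; their number limits the precision.

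Named genes are the 6 members with all their probe sets, the 2 called genes of each list with the largest difference in a comparison, and the most similar genes by Pearson correlation; other called list members, and Zap70, were named after their values were seen. The members and lists were chosen with earlier results of these data known. Some listed genes were not analysed here. Alternatives covered the set term, the arrays fitted, scaling, probe set choice, low values, fold threshold, array weights, the replicate number and single arrays left out.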

Additional observations from a re-analysis of the deposited data

Results flagged for a closer look

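Of 50 groups of 4 to 10 arrays tested, 4 had an array whose gap to the nearest other array, as a share of the group's range after removal of the set difference, passed Dixon's 95% critical value. Chance gives about 1 in 20 groups. For Cd3d in CLP it was replicate 3, with a gap of 0.851 of the range and a level of 5.04 in a group that spans little. For Cd3e it was replicate 3 in ETP (0.763, level 5.21) and replicate 1 in DN3 (0.632, level 12.56). For Cd247 probe set 1452539_a_at it was replicate 1 in ETP (0.708, level 4.36).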

How the results depend on the processing

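Under the alternatives, the number of members called was within 1.5 times the reported one in 248 of 254 cases. With the most variable probe set per gene, and with every probe set tested, 2 members were called in LSK minus HSC and 2 in ProB minus CLP, instead of 1, the addition being Cd247; with no fold threshold there were also 2 in ProB minus CLP. With the mean of a gene's probe sets the contrast of DN2 minus ETP less DN3 minus DN2 called 4, adding Cd247 and Trbv1. Members differing between sets in DN3 minus ETP numbered 1 with quantile normalization within set and 2 with array weights, instead of 0. The causes were not tested.

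For Cd247 the direction turned with the probe set: Cd247 ProB minus CLP was -1.496 (adjusted p 0.0387) with the most variable probe set, and Cd247 DN3 minus ProB was 5.14 with it and 2.01 with the mean of probe sets, against 0.66 and -0.34 as represented. Of 1447 member differences, 1352 kept direction and side of the threshold, 83 uncalled ones changed sign, 9 passed the threshold newly (8 by another choice of probe set), and 0 called ones lost it. Leaving out each array in turn left the members called at 1 in LSK minus HSC, 4 in DN2 minus ETP, 3 in DN3 minus DN2, 4 in DN3 minus ETP and 5 in DN3 minus ProB; members differing between sets in LSK minus HSC ran from 0 to 1, the 1 without HSC replicate 3. Of 1302 list counts, 74 moved by more than 1.5 times.

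Same-numbered arrays did not deviate together (mean r 0.00188 over 55 pairs, 3 over 0.1; 9 of 35 arrays correlated best with their own number). With the number as a replicate block, 1, 1, 4, 3, 4 and 1 members were called in LSK minus HSC, ETP minus LSK, DN2 minus ETP, DN3 minus DN2, DN3 minus ETP and ProB minus CLP, as without it, while calls over all genes went from 1530 to 1525, 303 to 291, 562 to 545, 426 to 410, 1073 to 1070 and 1064 to 989. The block could not be fitted where populations share no number within a set. With low genes left out, only the members that stayed have values, and the test between sets has none for fits without both sets.

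DN2 has 3 arrays, all in 1 set, and adult ETP 2, which limits those comparisons. RMA values carry no background level, and whether the highest levels lie at the top of the scale was not tested.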
